A study of Homo sapiens with 42 samples.

Results

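The ITGA1 and ITGA2 locus is a stretch of human chromosome 5 that holds 2 collagen receptor genes side by side, with PELO and MOCS2 as their neighbours. Its chromatin loops were followed in K562 cells after 0, 6 and 72 h of phorbol ester. A chromatin loop is here a pair of 10 kb segments (anchors) that the authors listed as touching each other. The members were all loops of the authors' table on chromosome 5 with an anchor starting between 52.5 and 53.5 Mb (hg38). The rule found 32 of 33914 loops. The locus was selected on the contact counts of 1 of them, loop11295 between ITGA1 and ITGA2, which were known to rise in these libraries. Its change is therefore given as a description with no p-value, and the other 31 loops entered by position alone.

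K562 is an established human leukemia cell line, labelled wild type, and all libraries came from it. Phorbol 12-myristate 13-acetate (PMA), a phorbol ester that activates protein kinase C, was used at 25 nM to drive the cells toward a megakaryocyte-like state, and the labels give media changes after 24 and 48 h. The 3 groups were cells at 0 h, 6 h and 72 h, each with 14 samples from 4 biological replicates, and no untreated culture was kept alongside to 72 h, so time in culture and PMA cannot be told apart. In situ Hi-C was the assay: crosslinked chromatin is cut, touching ends are ligated, and paired reads are counted between 2 places in the genome. Contact counts hold no RNA, so the state of the cells was not checked against marker genes here.

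Integrins are cell surface receptors made of 1 alpha and 1 beta subunit. ITGA1 and ITGA2 encode the alpha 1 and alpha 2 subunits, which pair with beta 1 to bind collagen; on megakaryocytes and platelets the alpha 2 receptor takes part in adhesion to collagen. PELO encodes a factor that rescues stalled ribosomes and lies inside the start of ITGA1. MOCS2 encodes both subunits of molybdopterin synthase, an enzyme of molybdenum cofactor synthesis. Loops of this kind can bring distant regulatory DNA close to a promoter, and a contact count by itself says nothing about transcription.

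In the RefSeq annotation of GRCh38.p14, ITGA1 spans chr5:52787916-52959209 on the plus strand, and PELO spans chr5:52787916-52804044 from the same start. ITGA2 follows at chr5:52989352-53094779 on the plus strand. MOCS2 lies at chr5:53095679-53109757 on the minus strand, so its 3′ end faces that of ITGA2. Further along lie a stretch with no protein-coding gene and then FST at chr5:53480629-53487134, which encodes follistatin, a secreted protein that binds activin. NDUFS4, a subunit of respiratory complex I, starts at 53560639, and ARL15, a small GTPase of the ARF-like family, covers chr5:53883942-54310573 on the minus strand.

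The promoters of ITGA2, of ITGA1 with PELO, and of FST are shown because the results below turn on loops that enclose the first or hold the others in an anchor. Each is the 250 bases before the start in RefSeq (GRCh38.p14), read 5′ to 3′ along the gene, with motif matches in capitals. The motifs were searched on both strands. The AP-1 motif was TGANTCA and the GATA motif was AGATAA. The RUNX motif was TGTGGTT, the ETS motif was CCGGAAG and the SP/KLF motif was GGGCGG. The FST promoter was added after its loops had been seen. No match overlapped another.
ITGA2 promoter, chr5:52989102-52989351, plus strand: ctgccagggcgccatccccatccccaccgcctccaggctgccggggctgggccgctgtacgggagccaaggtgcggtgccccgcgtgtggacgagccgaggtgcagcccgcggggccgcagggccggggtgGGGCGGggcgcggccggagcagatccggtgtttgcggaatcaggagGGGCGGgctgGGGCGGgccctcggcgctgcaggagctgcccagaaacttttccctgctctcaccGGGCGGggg
ITGA1 and PELO shared promoter, chr5:52787666-52787915, plus strand: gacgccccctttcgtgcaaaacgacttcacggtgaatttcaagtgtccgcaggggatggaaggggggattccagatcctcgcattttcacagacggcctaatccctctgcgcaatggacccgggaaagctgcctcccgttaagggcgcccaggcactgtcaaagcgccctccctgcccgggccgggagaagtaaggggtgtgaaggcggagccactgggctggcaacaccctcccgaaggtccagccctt
FST promoter, chr5:53480379-53480628, plus strand: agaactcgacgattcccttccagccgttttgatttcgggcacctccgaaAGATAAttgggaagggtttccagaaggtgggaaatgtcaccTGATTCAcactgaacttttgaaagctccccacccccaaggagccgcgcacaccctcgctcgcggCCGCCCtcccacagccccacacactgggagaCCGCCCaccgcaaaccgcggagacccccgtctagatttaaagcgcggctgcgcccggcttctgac

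The ITGA2 promoter is the richest in G and C of these, at 76.4%, against a median of 62.0% over the 22078 promoters of the table. It holds 4 GGGCGG matches, the nearest 3 bases before the start, and a match to this motif stands in 53.7% of all promoters. The shared ITGA1 and PELO promoter is 62.0% G and C and holds none of the 5 motifs. The FST promoter holds 1 AP-1 match (in 5.37% of all promoters), 1 GATA match (in 7.10%) and 2 SP/KLF matches on the minus strand, printed as their complement. The MOCS2 promoter, at 64.8% G and C, holds 1 SP/KLF match. RUNX matches stand in 3.13% and ETS matches in 10.6% of promoters, and none of the promoters searched here has either. These matches describe letters in the reference and not sites in these cells.

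The libraries held 849895 to 1472197 contacts over all loops at 0 h, 736929 to 1090199 at 6 h and 988726 to 1181057 at 72 h. Replicates 3 and 4 differed within a time by little more than sampling noise, with a chi-square per degree of freedom of 1.014 at 0 h, 1.016 at 6 h and 1.000 at 72 h. They were therefore averaged into 1 sample, and means ± SD stand over n = 3. For the loops that the results turn on, the 4 library values are given as replicates 1 to 4 in turn, and the other loops are given by their means; the fits kept the 12 libraries. The labels number biological replicates without saying that they were separate cultures, so the p-values measure the spread between these libraries. In a fit within replicates 3 and 4 alone, that spread is little more than sampling noise. Its p-values therefore do not measure a spread between separate samples. A normalized count is the number of contacts per 1000000 contacts in tested loops after TMM scaling. It includes the contacts that any 2 places at that distance make, so levels are not compared between loops of different length, and a ratio of 2 loops is followed only over time.

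**Figure D1:**
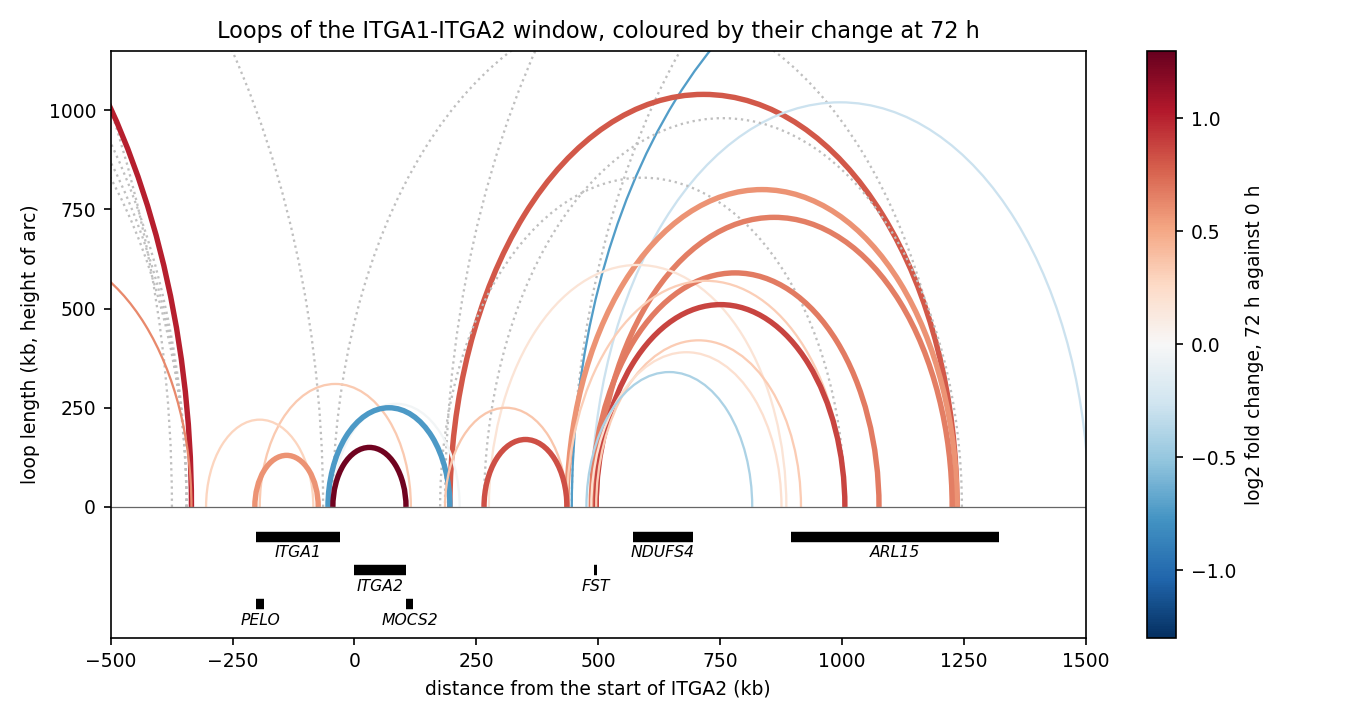
Loops with an anchor in the window, drawn as arcs over the distance in kb from the start of ITGA2, with the height of the arc giving the loop length in kb; loops that reach past the frame are clipped. Colour gives the log2 fold change at 72 h against 0 h, thick arcs passed the test at an adjusted p under 0.05, dotted grey arcs had too few contacts to test, and black bars are genes. The dark red arc over ITGA2 is loop11295 (log2 fold change 1.27), and the blue thick arc over it is loop11294 (-0.75).

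Of the 32 loops, 22 had enough contacts to be tested and 10 did not. The tested loops were 130 to 1690 kb long (median 465 kb) and held 1 to 103 contacts per library (median 16). The untested loops were 830 to 2120 kb long (median 1440 kb) and held 0 to 17 contacts (median 5). The 32 loops used 42 distinct anchors, and 27 of these belonged to 1 loop only. With anchors that touch each other merged, 7 loops met at ITGA1's last part (52900001 to 52950000) and 7 around the FST start (53460001 to 53490000), so the loops are not independent of each other.

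The level of loop11295 stepped up at 6 h and again at 72 h. It joins a segment in the last part of ITGA1 (chr5:52940001-52950000, also inside the antisense RNA gene ITGA2-AS1) with a segment holding the 3′ ends of ITGA2 and MOCS2 (chr5:53090001-53100000). The 150 kb loop encloses the ITGA2 start. At 0 h its normalized counts were 39.1, 37.0, 27.6 and 35.2 (35.9 ± 4.0, SD, n = 3). At 6 h they were 64.7, 55.1, 76.4 and 50.7 (61.1 ± 5.2). At 72 h they were 91.1, 91.4, 84.2 and 85.7 (89.1 ± 3.6). Every 6 h library was above every 0 h library, and every 72 h library was above every 6 h library.

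On the log2 scale loop11295 was 0.75 (SE 0.15) higher at 6 h than at 0 h and 1.27 (SE 0.14) higher at 72 h, or 1.68-fold and 2.41-fold. From 6 to 72 h the difference was 0.52 (SE 0.13), or 1.43-fold. Of the difference in mean level between 0 and 72 h, 47.4% was present at 6 h. Among the 24132 tested loops it ranked 313 from the top by fold change at 6 h and 102 at 72 h. Within replicates 1 and 2 alone the log2 differences were 0.62 at 6 h and 1.20 at 72 h, and within replicates 3 and 4 they were 0.93 and 1.36. The authors' deposited table gives this loop 0.71 at 6 h and 1.305 at 72 h on the log2 scale and puts it in the class gained.

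The medians of the technical replicates, of which there were 10 at each time, stood in the same order. Contacts per 1000000 ran from 17.2 to 63.5 at 0 h (median 32.2), from 37.1 to 82.7 at 6 h (median 64.0) and from 75.6 to 104.8 at 72 h (median 91.7). At 72 h all 10 were above the highest of 0 h, while those of 6 h overlapped both 0 h and 72 h. These are repeats of the same 4 replicates and add no n.

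Neither of the 2 tested loops that start from the ITGA1 anchor of loop11295, or from the segment next to it, and reach past MOCS2 was higher past the threshold. Loop11296 uses the same ITGA1 segment and reaches past ITGA2 and MOCS2 to chr5:53200001-53210000, 260 kb away. It stood at 23.9, 20.9, 23.8 and 25.0 at 0 h (23.1 ± 1.9), at 21.6, 28.0, 15.6 and 18.1 at 6 h (22.1 ± 5.6) and at 19.5, 19.1, 30.2 and 23.2 at 72 h (21.7 ± 4.3). The 3 times overlapped, and the log2 difference at 72 h was -0.03 with a 95% interval of -0.42 to 0.36 (edgeR quasi-likelihood test, adjusted p = 0.924). Over time the ratio of loop11295 to loop11296 went from 1.56 ± 0.25 at 0 h to 2.94 ± 0.95 at 6 h and 4.24 ± 0.86 at 72 h (n = 3). Loop11295 was selected for its rise, so a rise of this ratio was largely set in advance and is a description only.

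Loop11294 fell late. Its anchors are the neighbouring ITGA1 segment (chr5:52930001-52940000) and chr5:53180001-53190000, and the 250 kb between them hold the whole of ITGA2 and MOCS2. It stood at 23.2, 17.1, 22.6 and 20.5 at 0 h (20.6 ± 3.1) and at 17.6, 29.9, 22.6 and 14.5 at 6 h (22.04 ± 6.8). At 72 h it stood at 9.73, 15.1, 12.5 and 9.82 (11.98 ± 2.8), every library below the lowest of 0 h. The log2 difference was 0.04 at 6 h (adjusted p = 0.951, edgeR) and -0.75 (SE 0.23) at 72 h (adjusted p = 0.00704, edgeR). Within either replicate pair alone the 72 h against 0 h difference was -0.68 and -0.83 and passed in neither (adjusted p = 0.106 for replicates 1 and 2 and 0.0652 for 3 and 4, edgeR). Against 6 h the difference at 72 h was -0.78 (adjusted p = 0.0104, edgeR), a call that was lost with DESeq2 (0.0705), within replicates 1 and 2 (0.0522) and 3 and 4 (0.271), and without 6 h replicate 2 (adjusted p = 0.127).

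Loop11294 encloses loop11295, and at 72 h the outer loop was lower while the inner loop was higher. Over time the ratio of loop11295 to loop11294 went from 1.78 ± 0.36 at 0 h to 2.98 ± 0.99 at 6 h and 7.72 ± 1.65 at 72 h (n = 3). The lowest ratio among the 72 h libraries was 6.07 and the highest among the 0 h libraries was 2.17. Because loop11295 was selected for its rise, much of this separation was set in advance, and the ratio is a description only. The difference between the 2 loops was itself not tested.

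**Figure D2:**
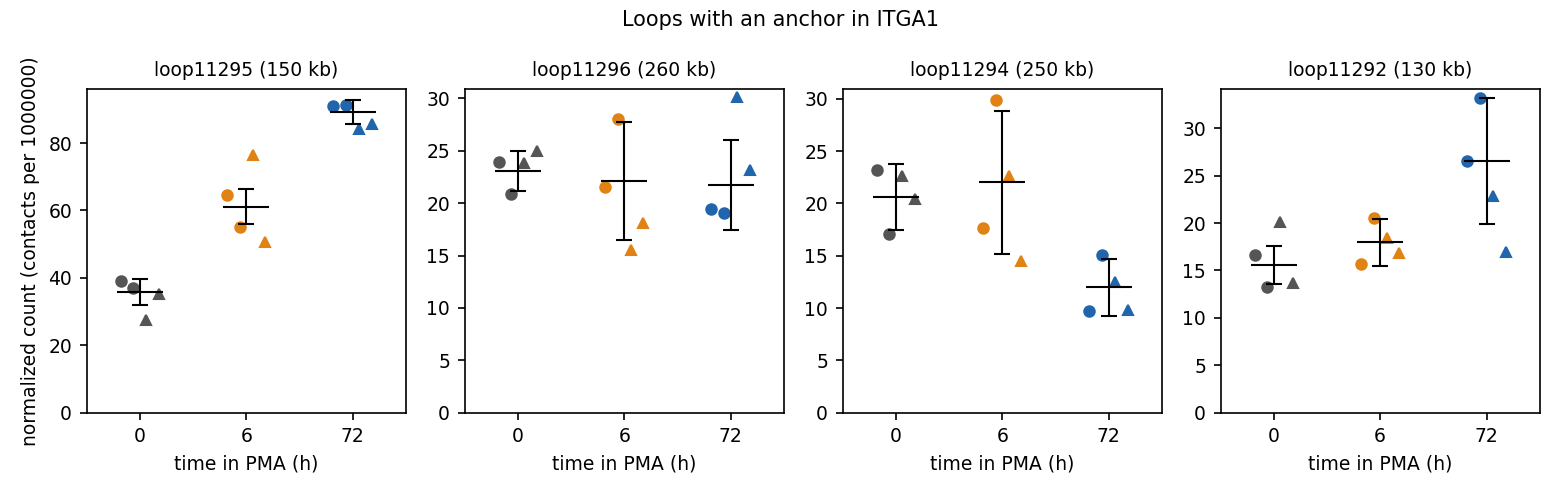
Normalized counts (contacts per 1000000 contacts in tested loops) of loop11295, loop11296, loop11294 and loop11292, all with an anchor in ITGA1, against time in PMA in h; circles are replicates 1 and 2, triangles replicates 3 and 4, and bars the mean ± SD over n = 3 with replicates 3 and 4 averaged. Loop11295 stepped up at both times, loop11294 was lower at 72 h, loop11296 overlapped at all 3 times, and loop11292 was higher at 72 h with overlap.

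At the ITGA1 start, 1 loop rose by 72 h. Loop11292 joins the segment holding the shared start of ITGA1 and PELO (chr5:52780001-52790000) with a segment inside ITGA1 (chr5:52910001-52920000), 130 kb away. Its counts were 16.7, 13.3, 20.1 and 13.6 at 0 h (15.6 ± 2.0), 15.7, 20.6, 18.4 and 16.9 at 6 h (18.0 ± 2.5) and 26.5, 33.1, 22.9 and 16.96 at 72 h (26.5 ± 6.6). The 72 h libraries overlapped the others through replicate 4. The log2 difference at 72 h was 0.58 (SE 0.21, adjusted p = 0.0222, edgeR). The call was lost with DESeq2 (adjusted p = 0.102), within replicates 3 and 4, where the difference was 0.21 (adjusted p = 0.688), and without any of 4 libraries in turn: 0 h replicates 2 and 4 (adjusted p = 0.078 and 0.0632) and 72 h replicates 1 and 2 (0.0604 and 0.151).

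Loop11293 is the only member with the MOCS2 start in an anchor, and its other anchor lies in the first part of PELO and ITGA1, 310 kb away. Its means over the time course were 9.43 ± 3.4, 12.7 ± 4.8 and 12.6 ± 3.9. The log2 difference at 72 h was 0.34 with an interval of -0.20 to 0.87 (adjusted p = 0.352, edgeR). Loop11291, from upstream of PELO into ITGA1, stood at 14.2 ± 4.3, 16.7 ± 5.8 and 17.8 ± 3.2, and its difference at 72 h was 0.29 with an interval of -0.17 to 0.75 (adjusted p = 0.349, edgeR). Neither passed, and the intervals allow a rise as large as that of loop11292.

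At 6 h against 0 h, 0 of the 21 tested members other than loop11295 passed (edgeR), where 6.41% of all tested loops did (2.34% up and 4.07% down); none passed with DESeq2 either, and 2 had an unadjusted p under 0.05, loop11305 and loop11314. Their median log2 difference was 0.05 against 0.01 over all tested loops. None of them passed within replicates 1 and 2 alone (2.09% of all loops did) or within replicates 3 and 4 alone (0.916%). Loop11295 itself lay past the threshold, which nothing is read from because the locus was chosen by it.

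At 72 h against 0 h, 9 of these 21 members passed, where 33.6% of all tested loops did. Of the 9, 8 rose (16.7% of all tested loops rose) and 1, loop11294, fell (16.9% of all fell). Their median was 0.34 against 0.01 over all tested loops, and 16 of 21 were above 0 against 51.0% of all. These counts describe the tested members: loop11290 and loop11301 came through the filter on low counts mainly with their 72 h libraries, and without these and loop11307, which few 0 h and 6 h libraries would have kept, 8 of 18 passed, 7 up and 1 down, with a median of 0.33. From 6 to 72 h, 5 of 21 passed (20.5% of all tested loops did), 4 up (10.7% of all) and 1 down (9.81%), with a median of 0.35 against 0.00.

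With loop11295 included, 10 of 22 passed at 72 h against 0 h, and this count ran from 4 to 12 over the settings tried. It was 5 with DESeq2 (20.6% of all), 6 with a correction for loop length (29.6%), 9 within replicates 1 and 2 (19.7%) and 4 within replicates 3 and 4 (17.1%). Loop11295, on which the locus was selected, is among the loops in each of these counts. With DESeq2 the others were loop11280, loop11302 and loop11314, which rose, and loop11294, which fell. With the length correction they were loop11292, loop11302 and loop11314, which rose, and loop11294 and loop11307, which fell. In both fits the share of members passing without loop11295 was below the share of all loops. Without it, 8 passed within replicates 1 and 2 and 3 within replicates 3 and 4. The count with loop11295 was 11 with scaling to the total count and 12 with the replicate number or the replicate pair as a term. For these settings no share of all loops is given. From 6 to 72 h the count of 6 became 2 with DESeq2 (8.2% of all), 4 within replicates 1 and 2 (9.53%) and 0 within replicates 3 and 4 (edgeR; 6 at an unadjusted p under 0.05; 7.27% of all), and 7 with the length correction (19.6%). Without loop11295, 3 passed from 6 to 72 h within replicates 1 and 2. In 7 members, loop11295 among them, every 72 h library was above every 0 h library, as in 14.2% of all tested loops, and in 1 every 72 h library was below, as in 14.1%.

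**Figure D3:**
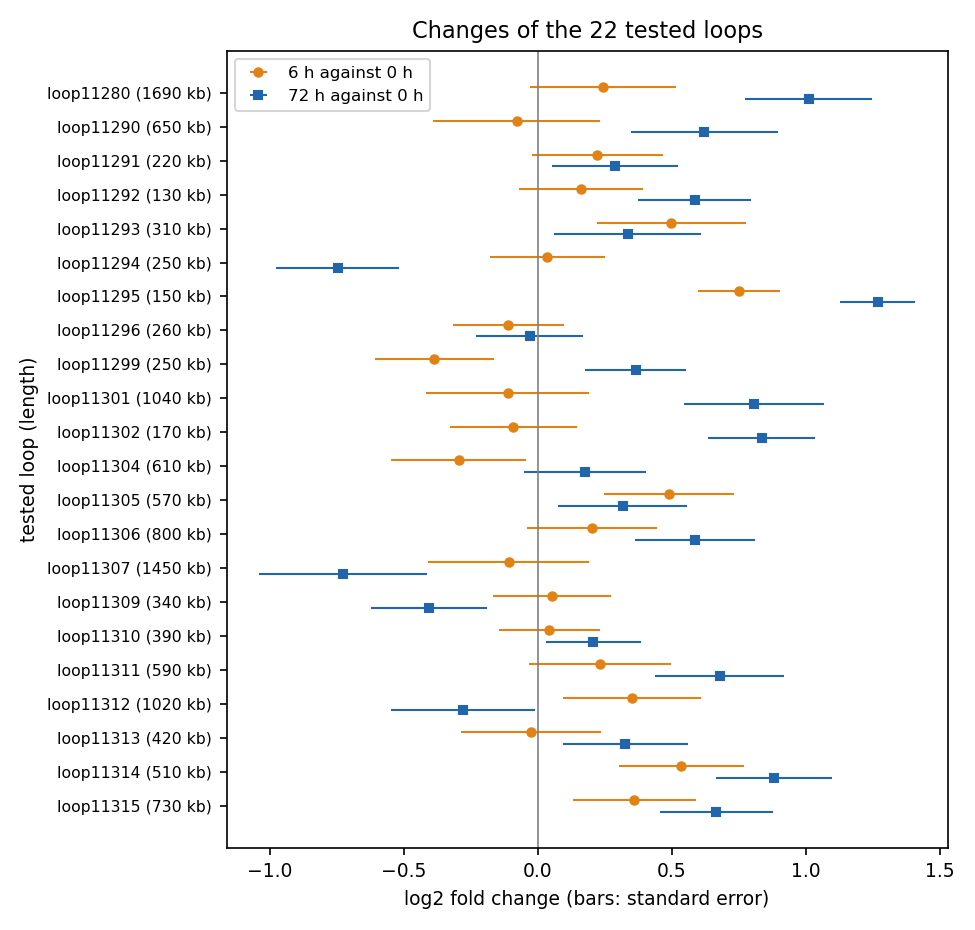
Log2 fold change of each tested member at 6 h and at 72 h against 0 h, with bars of ±1 standard error. Loop11295 has the largest value at both times; of the other 9 that passed at 72 h, 8 lie above 0 and loop11294 lies below.

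Past MOCS2 lies a stretch with no protein-coding gene, and 2 loops within it were higher at 72 h than at 6 h. They share the anchor chr5:53420001-53430000, which lies before FST. Loop11302 spans 170 kb from chr5:53250001-53260000. It stood at 17.4, 19.9, 16.3 and 10.2 at 0 h (16.9 ± 3.4), at 15.7, 14.0, 14.2 and 16.9 at 6 h (15.1 ± 0.9) and at 32.7, 30.1, 25.0 and 33.9 at 72 h (30.8 ± 1.7). Every 72 h library was above every earlier one. The log2 difference was -0.09 at 6 h (adjusted p = 0.879, edgeR) and 0.84 (SE 0.20) at 72 h (adjusted p = 0.000438, edgeR). From 6 to 72 h it was 0.93 (adjusted p = 0.000483, edgeR). It passed at 72 h against 0 h under all 24 alternatives run. Among these, the change of prior count affects only the fold change and leaves the p-value fixed. The call from 6 to 72 h was lost within replicates 3 and 4 (0.84, adjusted p = 0.0647, edgeR). The authors' deposited table gives -0.01 at 6 h and 0.74 at 72 h and the class gained. Loop11295 and loop11302 are the 2 members so classed, and the other 30 are static there. Log2 values are filled there for only 16 members, so many static members, loop11280 and loop11301 among them, have no value. The class static is therefore not read as a test that found no change.

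Loop11299 spans 250 kb from chr5:53170001-53180000 to the same anchor. Its counts were 18.1, 19.9, 31.4 and 26.2 at 0 h (22.3 ± 5.7), 20.6, 14.95, 21.2 and 12.1 at 6 h (17.4 ± 2.9) and 38.0, 27.1, 21.8 and 32.1 at 72 h (30.7 ± 6.3). The 72 h libraries were all above those of 6 h and overlapped those of 0 h. It was 0.75 higher at 72 h than at 6 h (SE 0.21, adjusted p = 0.00497, edgeR). That call was lost with DESeq2 (adjusted p = 0.0546) and within replicates 3 and 4 (0.68, adjusted p = 0.152, edgeR). Against 0 h the difference was 0.36 (adjusted p = 0.12, edgeR); it was 0.73 within replicates 1 and 2 and -0.06 within replicates 3 and 4.

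The FST start lies in 1 anchor (chr5:53480001-53490000) with 3 loops into ARL15, of which 2 rose by 72 h. Loop11314, 510 kb long, stood at 12.3, 13.3, 12.5 and 13.6 at 0 h (12.9 ± 0.5), at 20.6, 18.7, 16.98 and 21.7 at 6 h (19.5 ± 1.0) and at 23.9, 21.1, 31.2 and 25.9 at 72 h (24.5 ± 3.8). All 6 h and 72 h libraries were above all of 0 h. The log2 difference of 0.53 at 6 h did not pass (SE 0.23, adjusted p = 0.162, edgeR), and that of 0.88 at 72 h did (SE 0.22, adjusted p = 0.000593, edgeR). Within replicates 1 and 2 alone the 72 h call was lost (0.73, adjusted p = 0.0677). Loop11314 and loop11295 were the 2 members whose 6 h libraries all lay above those of 0 h, as did 4.97% of all tested loops.

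Loop11315, 730 kb long, stood at 15.9, 14.2, 10.0 and 18.2 at 0 h (14.8 ± 1.0), at 17.6, 18.7, 16.98 and 25.3 at 6 h (19.2 ± 1.8) and at 30.1, 24.1, 25.0 and 19.6 at 72 h (25.5 ± 4.1). The 72 h libraries were above those of 0 h and overlapped those of 6 h. Its log2 difference at 72 h was 0.67 (SE 0.21, adjusted p = 0.00919, edgeR). The call was lost with the loop length correction (0.47, adjusted p = 0.0785), with DESeq2 (adjusted p = 0.0566), within replicates 3 and 4 (0.55, adjusted p = 0.22) and without 72 h replicate 1 (adjusted p = 0.0606). Loop11313, the shortest from this anchor at 420 kb, did not pass. Its counts were 13.8, 16.1, 5.02 and 21.6 at 0 h and 20.3, 17.1, 9.36 and 25.9 at 72 h, so that replicates 3 and 4 lay far apart at both times. Its difference at 72 h was 0.33 with an interval of -0.13 to 0.78 (adjusted p = 0.281, edgeR).

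**Figure D4:**
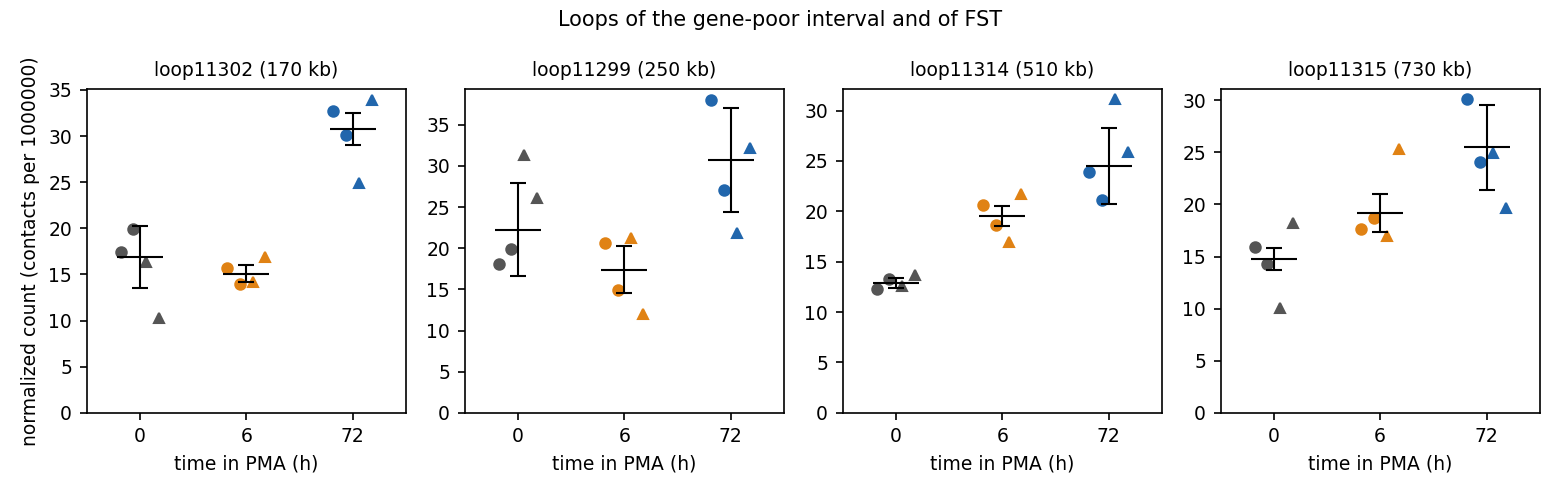
Normalized counts (contacts per 1000000 contacts in tested loops) against time in PMA in h for loop11302 and loop11299 in the stretch without protein-coding genes and for loop11314 and loop11315 from FST; circles are replicates 1 and 2, triangles replicates 3 and 4, and bars the mean ± SD over n = 3. Loop11302 sat between 10.2 and 19.9 before 72 h and between 25.0 and 33.9 at 72 h, and loop11314 was already above its 0 h libraries at 6 h.

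Anchors close to FST gave 4 more tested loops. Loop11311 (590 kb, into ARL15) stood at 7.97, 6.65, 15.1 and 17.1 at 0 h and at 18.6, 19.1, 17.7 and 19.6 at 72 h, so that replicates 1 and 2 were lower than 3 and 4 at 0 h, and the 72 h libraries lay close together just above the highest of 0 h. It was 0.68 higher at 72 h (adjusted p = 0.0199, edgeR). The call was lost with DESeq2 (adjusted p = 0.105), with the length correction (0.065), within replicates 3 and 4, where the difference was 0.19 (0.723), and without 0 h replicate 1 (0.143) or 2 (0.115). Loop11310 (390 kb) stood at 27.1, 28.1 and 33.1, loop11309 (340 kb) at 22.8, 22.8 and 15.6, and loop11312 (1020 kb) at 11.4, 15.3 and 9.62. None of these 3 passed at 72 h against 0 h (adjusted p = 0.378, 0.135 and 0.442, edgeR). Loop11309 split by replicate: at 0 h it stood at 29.0 and 25.6 in replicates 1 and 2 and at 13.8 and 13.6 in 3 and 4, and its difference at 72 h was -0.81 within the former and 0.25 within the latter.

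The long loops of the window rested on fewer contacts. Loop11280 spans 1690 kb from a segment beyond ISL1, a homeobox transcription factor gene, to chr5:52650001-52660000. It stood at 10.1, 9.49, 8.78 and 10.2 at 0 h (9.71 ± 0.37), at 7.84, 11.2, 12.7 and 16.9 at 6 h (11.3 ± 3.5) and at 22.1, 28.1, 17.7 and 18.7 at 72 h (22.8 ± 5.0). All 72 h libraries were above all earlier ones, and the log2 difference against 0 h was 1.01 (SE 0.24, adjusted p = 0.000357, edgeR). With the length correction this log2 difference shrank to 0.57 (adjusted p = 0.0597, edgeR), and within replicates 3 and 4 it was 0.80 (adjusted p = 0.106, edgeR).

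Loop11301 (1040 kb, from the far anchor of loop11294 into ARL15) stood at 7.97, 10.4, 11.3 and 4.55 at 0 h, at 5.88, 6.54, 11.3 and 8.44 at 6 h and at 12.4, 15.1, 20.8 and 17.9 at 72 h. It was 0.81 higher at 72 h than at 0 h (adjusted p = 0.0103, edgeR), and 0.51 with the length correction (adjusted p = 0.127). The call was also lost with DESeq2 (0.061), within replicates 1 and 2 (0.356) and without 0 h replicate 4 (0.0572) or 72 h replicate 3 (0.0523). Loop11301 passed the filter on low counts mainly through its 72 h libraries, so its presence among the tested loops is not independent of its rise.

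Loop11306 (800 kb, from the anchor of loop11302 into ARL15) rose from 13.8 ± 4.4 at 0 h to 21.3 ± 3.9 at 72 h with overlapping libraries, by 0.59 (adjusted p = 0.0310, edgeR). That call was lost under 10 of 24 alternatives, among them 0 h replicate 1 left out (0.35, adjusted p = 0.277). Loop11307 (1450 kb, from an anchor before FST to past SNX18) went the other way, with 10.9, 7.59, 8.78 and 12.5 at 0 h and 3.54, 1.00, 11.4 and 5.36 at 72 h. Its difference of -0.73 did not pass (adjusted p = 0.0592, edgeR). It passed under 7 of 24 alternatives, among them the length correction (adjusted p = 0.00386, edgeR) and 72 h replicate 3 left out (-1.16, adjusted p = 0.00753, edgeR).

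The 3 other tested loops were loop11290 (650 kb), loop11304 (610 kb) and loop11305 (570 kb). Loop11290 stood at 8.32, 8.27 and 13.8, with a difference of 0.62 at 72 h that did not pass (adjusted p = 0.0666, edgeR); it too came through the filter on low counts mainly with its 72 h libraries. Loop11304 stood at 15.7, 12.3 and 17.8 and loop11305 at 12.7, 18.3 and 15.1 (adjusted p = 0.581 and 0.315 at 72 h, edgeR). The highest mean of loop11305 was at 6 h, with an unadjusted p of 0.0458 and an adjusted p of 0.235 there (edgeR).

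The 10 untested loops included loop11288, with the ISL1 start in 1 anchor and chr5:52640001-52650000 in the other, and loop11297, from the ITGA1 anchor of loop11295 into ARL15. Loop11288 stood at 6.70 ± 2.0 at 0 h, 6.83 ± 1.7 at 6 h and 11.3 ± 3.5 at 72 h, and loop11297 at 3.59, 4.75 and 4.01. Single libraries of the 10 ran from 0 to 15.04. Summed over the 10, the libraries held 42.0, 45.6, 33.9 and 51.2 at 0 h (43.4 ± 1.9), 46.1, 48.6, 43.9 and 37.4 at 6 h (45.1 ± 4.1) and 66.3, 54.2, 61.4 and 64.3 at 72 h (61.1 ± 6.2). Each 72 h sum was above each earlier sum, and the sum was not tested. These loops are long (median 1440 kb), and no length correction was applied to the sum. Among long tested members, that correction lowered the 72 h difference of loop11280 from 1.01 to 0.57 and of loop11301 from 0.81 to 0.51. It took loop11307 from -0.73 to -1.08 and loop11312 from -0.28 to -0.56.

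On either side of the window, the nearest loops of the table were loop11285 (920 kb, untested; 2.72, 3.13 and 7.09) and loop11316 (680 kb, from within the gap before NDUFS4 into ARL15; 5.85, 12.6 and 8.02). They mark where the position rule ends, and no test is drawn from them.

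Loops with an end of a collagen receptor, integrin or adhesion signalling gene inside an anchor were taken from a list of 55 genes. The list gave 53 loops at 32 genes, 51 of them tested. At 72 h against 0 h, 9 rose and 17 fell (16.7% of all tested loops rose and 16.9% fell), with a median of -0.18 against 0.01 over all tested loops. Of these, 27 tested loops belong to signalling genes; the 24 at collagen receptors and integrin subunits gave 6 rises and 12 falls with a median of -0.41, and without the window's own loops 4 of 22 rose and 12 fell. Of 5 tested loops at collagen receptor genes, loop11295 and loop11292 rose, 2 at ITGA10 fell, and 1 at DDR1, a collagen-binding receptor kinase, did not pass. Loop11295 reaches ITGA2 at its 3′ end and not at its start.

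Of the other lists, integrin alpha genes gave 1 rise and 5 falls among 9 tested loops, beta genes 3 rises and 5 falls among 10, and adhesion signalling genes 3 rises and 5 falls among 27, beside the same shares of all tested loops (16.7% up and 16.9% down). The loop at ITGB3, the beta subunit of the platelet fibrinogen receptor, went from 170.4 ± 15 in untreated cells to 93.0 ± 11 at 72 h (log2 -0.91, adjusted p = 2.76e-12, edgeR). A loop at ITGB5, a partner of the alpha V subunit, fell by the same log2 value (-0.91), from 121.2 ± 7.1 to 64.2 ± 7.2. Loops at ITGA5, the fibronectin receptor's alpha subunit, at ITGB7 and at ITGA3 fell by 0.53, 0.57 and 0.59 on the log2 scale, and those of ITGA10, another collagen-binding alpha subunit, by 0.51 and 0.53. All of these had an adjusted p of at most 0.000232 (edgeR). They were named by smallest p, and the next in that order, a 900 kb loop at ITGB6, rose by 0.93 (adjusted p = 0.000235, edgeR). Over the lists, 7 tested loops outside the window rose and 17 fell.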

How the data were processed

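In situ Hi-C of K562 cells gave 1 table of contact counts for 33914 loops in 30 columns, and 0 columns were left unused. The counts are raw contacts per loop as the authors deposited them; Juicer 1.5.6, DESeq2 and hg38 are named in the submitters' processing notes, and the aligner and loop caller are not given in the sources used here. The authors also deposited, per the file headers, log2 fold changes, an adjusted p-value, a class per loop and the anchor positions; the class rule and the estimator of the log2 values are not given in the sources used here.

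Technical replicates (3 for replicates 1 and 2, 2 for replicates 3 and 4) were summed into 12 libraries. Low loops were filtered with filterByExpr (minimum count 10, minimum total 15), which kept 24132 loops. edgeR 4.0.16 in R 4.3.3 (TMM, glmQLFit, glmQLFTest, no covariate) fitted all 12 libraries, with Benjamini-Hochberg adjustment over all tested loops and a threshold of 0.05. Fold changes used a prior count of 2, and standard errors came from the fold change and the F statistic (its absolute value over the root of F). Intervals are 95%. The script was checked on simulated counts. Alternatives were DESeq2 1.42.0, other scalings, no filter, a loess offset on loop length (span 0.3), batch and block terms, and a prior count of 0.125. Others were fits within replicates 1 and 2 or 3 and 4, and each library left out. The prior count enters only the fold changes, so p-values under it are those of the main fit. The batch term was the split of replicates 1 and 2 from 3 and 4, and no label names a batch. Summing replicates 3 and 4 at every time was added after seeing the data. Genes and promoters came from RefSeq tables of GRCh38.p14 (5 of 5 promoters matched); exons were not used.

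Named were all member loops, the nearest loop on each side of the window, and the 3 loops most correlated with loop11295. Of the listed integrin loops, at most 8 were to be named by smallest p, and the next in that order was added. The members and lists were chosen with earlier results of these data known. Replicates 3 and 4 were counted as 1 sample in means because other pairs differed by more (chi-square per degree of freedom 1.05 to 1.26).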

Additional observations from a re-analysis of the deposited data

How the results depend on the processing

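Over the members' log2 fold changes, 1484 of 1561 values under an alternative stayed on their side of the threshold. Of these, 1438 kept their direction and 46, all uncalled, changed sign. Another 54 lost a call and 23 gained one. The values under the other prior count had to stay on their side, because their p-values are those of the main fit. At 6 h against 0 h the count of members past the threshold was 1, and 0 in the replicate 1 and 2 fit (edgeR; 1 with an unadjusted p under 0.05; DESeq2 on all libraries called 1). At 72 h against 0 h the count of 10 became 5 with DESeq2 (20.6% of all loops passed), 6 with the loop length correction (29.6%; 4 up and 2 down) and 4 in the replicate 3 and 4 fit (17.1%). Between 6 and 72 h the count of 6 became 2 with DESeq2 and 0 in the replicate 3 and 4 fit (edgeR; 6 with an unadjusted p under 0.05). With the batch term, which splits replicates 1 and 2 from 3 and 4 and is no batch named in the labels, these 2 counts were 12 and 7. With scaling to the total count they were 11 and 6. The counts of members in this section include loop11295. For the batch term, total scaling, replicate block and left-out libraries no share of all loops is given. Those counts are therefore not read as a result about the members. Leaving out 1 library gave 1 at 6 h against 0 h each time, 8 to 10 at 72 h against 0 h and 4 to 8 at 72 h against 6 h; the 4 came without 6 h replicate 1. Deviations from the time means were weakly correlated between libraries of the same replicate number (0.015 to 0.124 over 12 pairs, mean 0.040). Over the 36 pairs of different number the mean was -0.013 (-0.074 to 0.044). The main fit used no pairing, and with the replicate block the counts were 1, 12 and 7. On the list of 55 collagen receptor, integrin and adhesion signalling genes, 26 of 51 tested loops passed at 72 h against 0 h. Taking gene ends within 10 kb of an anchor gave 53 of 113 tested. Of all tested loops, 33.6% passed. Loops with a median near 16 contacts a library leave intervals about as wide as most of the differences, so that uncalled members are not shown to be stable.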

Other observations

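Elsewhere in the genome, the 3 tested loops whose log2 normalized counts followed loop11295 most closely over the 12 libraries were loop10754, loop18557 and loop10451, with Pearson's r of 0.970, 0.968 and 0.957. They were picked as the highest among all tested loops, so these values are a description and carry no p-value. Loop10754 is a 160 kb loop on chromosome 4 with an anchor inside SORBS2, an adaptor protein gene of the actin cytoskeleton; its mean normalized counts were 9.91, 16.0 and 24.4 in time order. Loop18557 is an 820 kb loop on chromosome 8 with an anchor inside SAMD12 and stood at 8.69, 13.2 and 20.4. Loop10451 is a 190 kb loop on chromosome 4 with ends of KLHL2 and MSMO1, a sterol synthesis enzyme gene, in 1 anchor, and stood at 38.2, 47.7 and 65.2.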
